A study of Mus musculus with 7 samples.

Results

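Reactive gliosis is the response of glial cells to damage of a neural tissue, and 9 structural and secreted genes that are widely used to recognise it were followed here in the retina of SCA7 mice: *Gfap*, *Vim*, *Nes*, *Lcn2*, *Serpina3n*, *Cd44*, *S100a6*, *A2m* and *Timp1*. They were taken by symbol and are 9 of the 52550 genes counted. All 9 passed the filter on low counts, which left 20128 genes for the test. *Timp1* passed it only through the SCA7 libraries, where it was higher. Of the 9, 8 were upregulated in SCA7 retina, where 7.47% of all genes tested were, and *Lcn2* did not pass the test. Total RNA-seq (all RNA but ribosomal RNA) was made from 4 WT mice and 3 SCA7 140Q/140Q mice, which carry an expanded repeat of glutamine codons (the 140Q allele) in both copies of the endogenous *Atxn7* gene, driven by its own promoter. All mice were C57BL/6J animals of 12.5 weeks, and each library held the 2 retinas of 1 mouse, without further treatment. The allele is in every cell of these mice, so that the glia, neurons and vessels of the SCA7 retina all carry it.

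In the retina, Müller glia span the whole tissue and support the neurons, astrocytes lie with the ganglion cell axons and the vessels of the inner surface, and microglia are the resident immune cells. On damage, Müller glia and astrocytes build more intermediate filaments, above all GFAP, and secrete acute phase proteins, protease inhibitors and matrix proteins. Cytokines of the interleukin 6 family, with LIF as the one best known in the retina, act on this response through the receptor chain gp130 and the transcription factor STAT3.

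The libraries held between 56497675 and 96635832 counts, so that 1 count was worth between 0.00972 and 0.0188 CPM (counts scaled to library size, with TMM factors between libraries). The tissue showed the markers of retina, with 8 rod genes at 59820 to 61962 CPM in sum in WT. These fell to 15725 to 20418 CPM in SCA7, and the TMM factors ran from 0.890 to 0.974 in WT and from 1.07 to 1.09 in SCA7. *Atxn7* itself was at 33.7 to 43.7 CPM in WT and 34.2 to 39.9 CPM in SCA7, a log2 fold change of -0.06 (SE 0.09, edgeR quasi-likelihood adjusted p = 0.64), and its count does not show the length of the repeat. The sum of 6 lens genes, a tissue beside the retina, varied widely within both genotypes: it was 141, 542, 369 and 41.9 CPM in the WT libraries and 516, 864 and 29.5 CPM in the SCA7 libraries. No library was a copy of another, as pairs of the same genotype differed by 9.48 to 90.8 times the counting noise. The retina is a mixture of cells, and fewer cells of a type cannot be told apart here from less RNA in each cell.

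The genes lie on 6 chromosomes, and all are protein-coding in the GRCm38 (mm10) annotation. *Gfap* (ENSMUSG00000020932) lies at chr11:102887336-102900912 on the minus strand. *Vim* (ENSMUSG00000026728) lies at chr2:13573927-13582826 on the plus strand, *Lcn2* (ENSMUSG00000026822) at chr2:32384633-32388252 on the minus strand and *Cd44* (ENSMUSG00000005087) at chr2:102811141-102901665 on the minus strand. *Nes* (ENSMUSG00000004891) lies at chr3:87971078-87980451 and *S100a6* (ENSMUSG00000001025) at chr3:90612882-90624181, both on the plus strand. *A2m* (ENSMUSG00000030111) lies at chr6:121635376-121679227, *Serpina3n* (ENSMUSG00000021091) at chr12:104406729-104414329 and *Timp1* (ENSMUSG00000001131) at chrX:20870166-20874735, all on the plus strand. Genes on the opposite strand overlap *Gfap* (a lincRNA, Gm26668), *Cd44* (an snRNA, Gm23731) and *Timp1* (which lies inside *Syn1*, a synaptic vesicle gene), with 0 exonic bases in common. *Serpina3n* belongs to a cluster of near-identical serpin genes, so that its count is uncertain where reads fit several copies.

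The DNA before the start site is shown for 4 of the upregulated genes, those whose window of 250 bases upstream of a RefSeq start (GRCm38.p6) holds no annotated exon. The windows lie at chr11:102897201-102897450 (minus strand) for *Gfap*, chr12:104406458-104406707 (plus) for *Serpina3n*, chrX:20869916-20870165 (plus) for *Timp1* and chr2:102901666-102901915 (minus) for *Cd44*. That of *Gfap* lies within the gene, whose longest annotated transcripts begin further upstream. The capitals mark the first bases of a motif match that runs on past the start.
*Gfap*: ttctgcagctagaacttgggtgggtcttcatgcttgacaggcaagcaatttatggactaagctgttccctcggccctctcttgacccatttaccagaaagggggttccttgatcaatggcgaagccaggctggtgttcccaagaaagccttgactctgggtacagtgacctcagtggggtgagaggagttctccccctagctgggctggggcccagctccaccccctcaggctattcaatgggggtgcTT
*Serpina3n*: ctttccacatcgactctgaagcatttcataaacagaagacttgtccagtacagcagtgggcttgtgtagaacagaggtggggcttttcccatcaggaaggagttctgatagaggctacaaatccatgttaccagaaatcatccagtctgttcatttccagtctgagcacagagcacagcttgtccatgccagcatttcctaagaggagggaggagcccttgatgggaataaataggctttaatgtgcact
*Timp1*: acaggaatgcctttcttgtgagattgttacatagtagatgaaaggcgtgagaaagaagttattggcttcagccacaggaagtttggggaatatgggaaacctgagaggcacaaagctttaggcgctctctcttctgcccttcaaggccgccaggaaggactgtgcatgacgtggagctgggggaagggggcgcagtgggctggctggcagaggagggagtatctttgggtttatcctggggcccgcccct
*Cd44*: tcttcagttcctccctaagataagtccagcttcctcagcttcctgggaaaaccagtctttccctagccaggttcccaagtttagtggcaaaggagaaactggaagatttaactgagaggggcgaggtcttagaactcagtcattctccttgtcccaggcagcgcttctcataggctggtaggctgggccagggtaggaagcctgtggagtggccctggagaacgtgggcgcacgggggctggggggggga
Each of 3 short motifs was searched on both strands in windows of 300 bases, which add the 50 bases after the start, for the 8 of 9 genes with a RefSeq window (all but *A2m*). The STAT motif TTCNNNGAA was in 1 of the 8 windows, as TTCCAGGAA at positions -2 to 7 of *Gfap* (chr11:102897194-102897202), and in 8.3% of all 32851 windows. The C/EBP motif TTGCNNAA was in 1 of the 8, as TTGCTCAA at positions -216 to -209 of *Lcn2* (chr2:32387948-32387955), and in 10.8% of all windows. The AP-1 motif TGANTCA was in 0 of the 8 and in 7.81% of all windows. These matches are letters in a window and were not tested as binding sites.

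Of the 9 genes, 8 were upregulated (adjusted p under 0.05 and FC, SCA7/WT, above 1.3) and 0 were downregulated, where 7.47% of all genes tested were upregulated and 7.91% downregulated, 15.4% in either direction. Their median log2 fold change was 1.74, beside -0.02 over all genes tested. In the 8 upregulated genes every SCA7 library lay above every WT library, as it did in 19.3% of all genes tested. Each of the 8 had an exact two-sided permutation p of 0.0286, the smallest that 4 against 3 libraries can give. The 9 genes together took 181 to 213 CPM in WT and 474 to 538 CPM in SCA7.

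**Figure D1:**
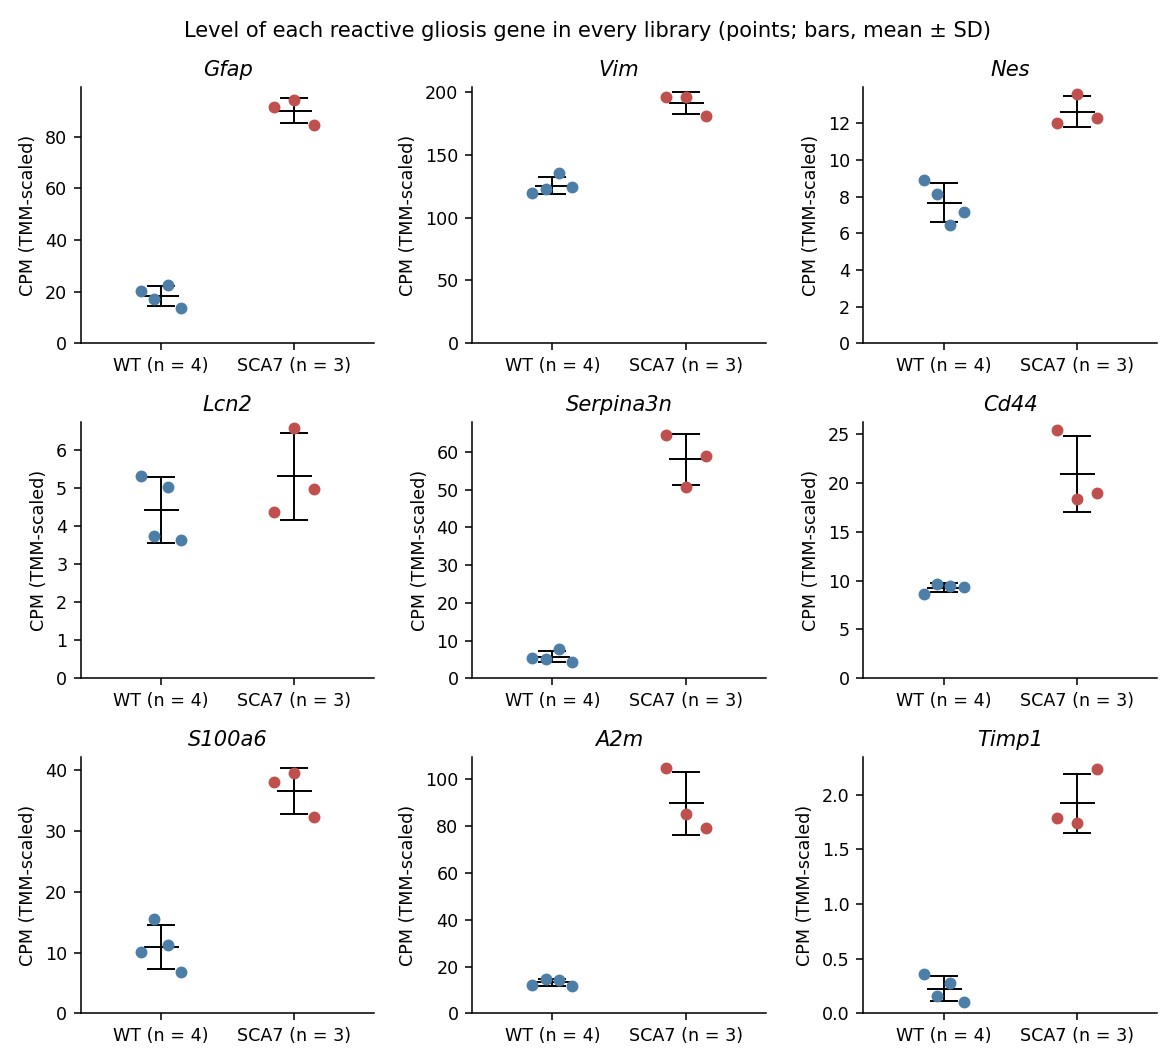
Level of each gene in CPM (TMM-scaled, linear axes from 0) in the 4 WT libraries (blue) and the 3 SCA7 libraries (red), with bars for mean ± SD. The groups are apart for 8 genes and overlap for *Lcn2*, whose WT libraries reach 5.31 CPM while the lowest SCA7 library is at 4.36 CPM.

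The intermediate filament genes rose to different extents. *Gfap*, the filament of astrocytes that resting Müller glia hold little of, was at 20.2, 17.0, 22.7 and 13.6 CPM in the WT libraries and at 91.7, 94.1 and 84.5 CPM in the SCA7 libraries. The lowest SCA7 library was 3.72 times the highest WT library. *Gfap* rose by 2.30 on the log2 scale (SE 0.15, FC 4.91, edgeR quasi-likelihood adjusted p = 1.1e-05), and 55 of the genes tested had a larger log2 fold change. *Vim*, the filament that Müller glia, astrocytes and vessels carry at rest, was at 120, 122, 135 and 124 CPM in WT and at 196, 196 and 181 CPM in SCA7. Its libraries were close within each genotype, with a coefficient of variation of 5.51% in WT and 4.58% in SCA7. The groups lay 1.34-fold apart at their nearest. *Vim* rose by 0.61 (SE 0.06, FC 1.52, adjusted p = 2.85e-05 by edgeR), and 1089 genes had a larger log2 fold change. *Nes*, the filament of neural progenitors and of growing vessels, was at 8.93, 8.12, 6.45 and 7.19 CPM in WT and at 12.0, 13.6 and 12.3 CPM in SCA7, a gap of 1.34 between the nearest libraries. *Nes* rose by 0.72 (SE 0.11, FC 1.65, adjusted p = 3.86e-04 by edgeR).

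The secreted acute phase genes parted from each other. *Serpina3n*, an inhibitor of serine proteases, was at 5.42, 5.17, 7.73 and 4.41 CPM in WT and at 64.4, 50.9 and 58.9 CPM in SCA7. The lowest SCA7 library was 6.58 times the highest WT library, the widest gap of the 9. *Serpina3n* rose by 3.36 (SE 0.17, FC 10.3, adjusted p = 3.08e-06 by edgeR), and 22 of the genes tested had a larger log2 fold change. *A2m*, alpha-2-macroglobulin, a secreted trap of proteases of all classes, was at 12.3, 14.7, 14.3 and 11.7 CPM in WT and at 105, 85.3 and 79.2 CPM in SCA7. No SCA7 library of *A2m* came within 5.39-fold of WT, and it rose by 2.76 (SE 0.11, FC 6.78, adjusted p = 3.86e-08 by edgeR).

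*Lcn2*, lipocalin-2, which binds the iron carriers of bacteria, was the exception. It was at 5.31, 3.73, 5.03 and 3.64 CPM in WT and at 4.36, 6.57 and 4.98 CPM in SCA7, so that WT replicates 1 and 3 lay above SCA7 replicates 1 and 3. Its log2 fold change was 0.27 (SE 0.17, 95% interval -0.11 to 0.64), an FC of 1.20 with an interval of 0.930 to 1.56 and an adjusted p of 0.27 by edgeR. The exact two-sided permutation p was 0.286. With 238 to 311 counts in each WT library, a rise of the size of *Serpina3n* or *A2m* lay outside the interval, while a rise near the FC threshold of 1.3 lay within it.

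The genes of the cell surface, of calcium binding and of protease inhibition also rose. *Cd44*, the receptor of the matrix sugar hyaluronan, was at 8.66, 9.68, 9.43 and 9.28 CPM in WT and at 25.4, 18.3 and 18.9 CPM in SCA7. Its WT libraries were close together (coefficient of variation 4.67%), and SCA7 replicate 1 lay above the others of its genotype. *Cd44* rose by 1.17 (SE 0.11, FC 2.25, adjusted p = 9.45e-06 by edgeR). *S100a6*, a small calcium-binding protein of dividing and glial cells, was at 10.1, 15.5, 11.2 and 6.84 CPM in WT and at 38.0, 39.5 and 32.3 CPM in SCA7. Its WT libraries spread widely, with a coefficient of variation of 32.7%. Within each genotype its libraries had the same order as their lens sums, which was noticed after the values were seen. A fit with the lens sum as covariate gave *S100a6* an SE of 0.15. What lens adds to its level was not tested. *S100a6* rose by 1.74 (SE 0.25, FC 3.35, adjusted p = 0.00333 by edgeR), the largest adjusted p of the 8. *Timp1*, a secreted inhibitor of matrix metalloproteinases, was the scarcest, with 21, 11, 15 and 7 counts in WT and 110, 149 and 230 in SCA7. In CPM these were 0.359, 0.154, 0.281 and 0.107 in WT and 1.79, 1.75 and 2.24 in SCA7. Only the SCA7 libraries carried *Timp1* past the filter on low counts, so its call rests on a gene kept by the group where it was high. *Timp1* rose by 3.13 (SE 0.28, 95% interval 2.51 to 3.74, FC 8.73, adjusted p = 8.62e-06 by edgeR).

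**Figure D2:**
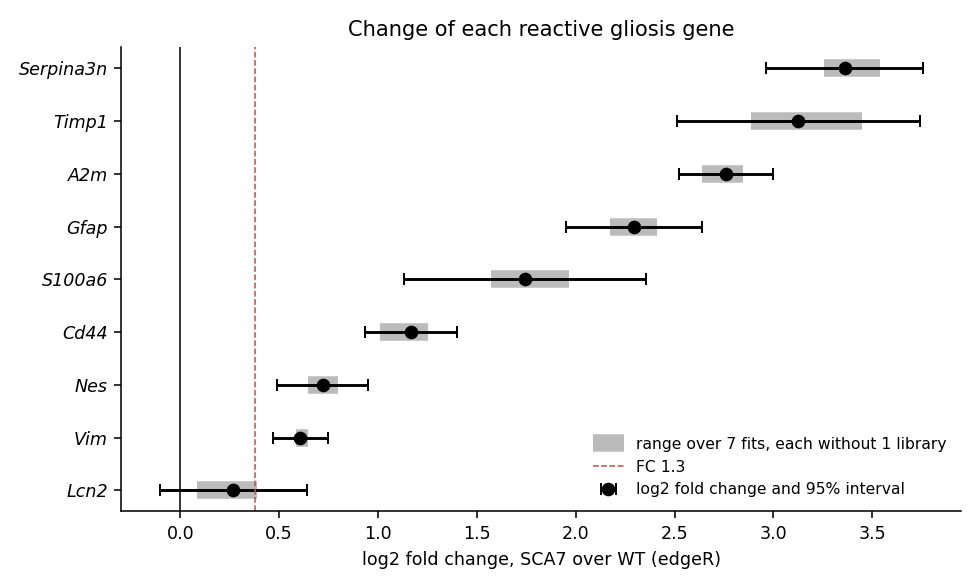
Log2 fold change (SCA7 over WT, edgeR) of each gene with its 95% interval (black) and the range of the estimate when each of the 7 libraries was left out in turn (grey). The intervals of 8 genes lie above the FC threshold of 1.3 (red dashed line), from *Vim* at 0.61 to *Serpina3n* at 3.36, and that of *Lcn2* spans 0.

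No single library decided a call. When each of the 7 libraries was left out in turn, the 8 genes stayed upregulated, with *Serpina3n* between 3.26 and 3.54, *Timp1* between 2.89 and 3.45, *A2m* between 2.64 and 2.84 and *Gfap* between 2.17 and 2.41. *S100a6* moved between 1.57 and 1.97, *Cd44* between 1.01 and 1.25, *Nes* between 0.65 and 0.80 and *Vim* between 0.58 and 0.64. *Lcn2* moved between 0.08 and 0.39 and was not called in any of these fits (adjusted p of 0.169 to 0.778 by edgeR). WT replicate 4 was the lowest WT library for 6 of the 9 genes (*Gfap*, *Lcn2*, *Serpina3n*, *S100a6*, *A2m* and *Timp1*). Leaving it out gave the lowest of these estimates for *Gfap* (2.17), *Serpina3n* (3.26), *S100a6* (1.57) and *Timp1* (2.89). Within SCA7, replicate 2 was the highest for *Gfap*, *Vim*, *Nes*, *Lcn2* and *S100a6*, replicate 1 for *Serpina3n*, *Cd44* and *A2m*, and replicate 3 for *Timp1*.

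Levels of different genes were compared as RPK, counts normalized by DESeq2 size factors per kb of median transcript length. In WT retina *Vim* was the most abundant at 6407 ± 343 RPK (SD, n = 4), followed by *S100a6* at 1261 ± 416 and *Gfap* at 488 ± 104. *A2m* (354 ± 40.2), *Lcn2* (352 ± 68.1) and *Cd44* (323 ± 15.6) followed, and these 3 changed places between WT libraries. *Serpina3n* (190 ± 47.5), *Nes* (88.9 ± 12.6) and *Timp1* (18.1 ± 9.26) were the lowest. In SCA7 retina *Vim* was still first at 9834 ± 414 RPK (SD, n = 3) and *S100a6* second at 4266 ± 429. *A2m* (2424 ± 362) and *Gfap* (2414 ± 122) came next and did not differ beyond their spread, followed by *Serpina3n* (1960 ± 238), *Cd44* (734 ± 139) and *Lcn2* (425 ± 89.5). *Timp1* (156 ± 22.7) and *Nes* (148 ± 9.23) changed places between SCA7 libraries. With the length of all exons in place of the median transcript length, 4 genes in WT and 5 in SCA7 took another place in the order, and *Vim* stayed first. *Serpina3n* then stood above *A2m*, *Lcn2* and *Cd44* in WT already, and second in SCA7, above *S100a6*. Its place among the 9 therefore depends on the length used, unlike its change between genotypes.

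**Figure D3:**
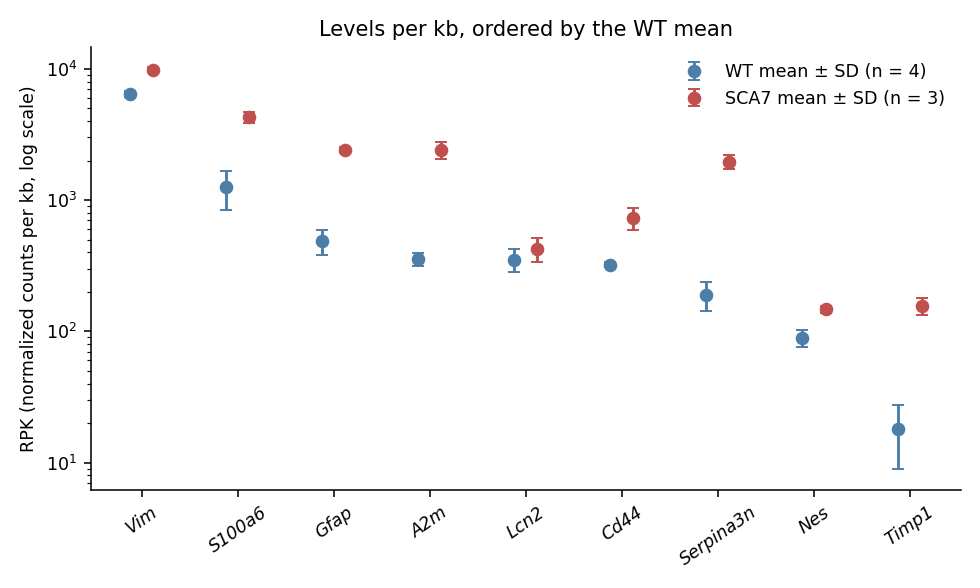
Mean RPK (normalized counts per kb of median transcript length, log axis) of each gene in WT (blue, n = 4) and SCA7 (red, n = 3), with SD. *Vim* stands at 6407 RPK in WT and 9834 in SCA7, whereas *Serpina3n* goes from 190 to 1960 and *Lcn2* from 352 to 425.

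The make-up of the 9 transcripts shifted with their sum, which went from 9483 ± 700 to 22360 ± 1313 RPK. *Vim* made up 67.7 ± 4.02% of this sum in WT and 44.0 ± 0.955% in SCA7. The share of *Gfap* went from 5.12 ± 0.869% to 10.8 ± 0.324%, that of *A2m* from 3.73 ± 0.198% to 10.8 ± 1.06% and that of *Serpina3n* from 1.99 ± 0.370% to 8.78 ± 1.07%. The share of *Lcn2* went the other way, from 3.72 ± 0.690% to 1.91 ± 0.417%. The share of *Cd44* was 3.41 ± 0.233% in WT and 3.27 ± 0.485% in SCA7. These shares depend on the transcript lengths: with the length of all exons, a setting added after the data were seen, *Vim* made up 55.4 ± 4.61% in WT and 29.1 ± 0.798% in SCA7, and *Serpina3n* 5.69 ± 0.991% and 20.3 ± 2.22%. The shares of *Vim* and *Lcn2* were lower in SCA7 and those of *Gfap*, *A2m* and *Serpina3n* higher with either length.

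Counts set against *Vim* in the same library do not depend on the scaling of libraries, and 8 such ratios were compared by exact two-sided permutation tests. Relative to *Vim*, *Serpina3n* was 6.83-fold higher in SCA7, *Timp1* 6.22-fold, *A2m* 4.45-fold, *Gfap* 3.28-fold and *Cd44* 1.46-fold, each with an exact p of 0.0286 (0.0457 after Benjamini-Hochberg adjustment over the 8 ratios). *S100a6* was 2.29-fold higher without overlap of the groups (exact p = 0.0571, adjusted 0.0762). The ratio of *Nes* to *Vim* was 1.09-fold that of WT, with overlapping groups (exact p = 0.543). *Lcn2* was at 0.786 of its WT ratio to *Vim*, with overlapping groups (exact p = 0.2).

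Of the 12 genes that mark Müller glia, 0 were called in either direction by edgeR, DESeq2 or limma-voom, and their median log2 fold change was 0.19. Short of the FC thresholds, 5 were higher at an adjusted p under 0.05 (14.2% of all genes tested were), among them the water channel *Aqp4* at 0.31, and 1 was lower, *Glul*, the glutamine synthetase, at -0.36. At an unadjusted p under 0.05 these were 6 and 1. Their sum was 4624 to 5564 CPM in WT and 4515 to 4793 CPM in SCA7. Relative to this sum, *Serpina3n* was 11.7-fold higher in SCA7, *Timp1* 10.6-fold, *A2m* 7.58-fold and *Gfap* 5.59-fold. *S100a6* was 3.90-fold, *Cd44* 2.50-fold and *Vim* 1.71-fold higher. These 7 ratios each had an exact p of 0.0286 (0.0367 after Benjamini-Hochberg adjustment over 9 ratios). *Nes* was 1.86-fold higher (exact p = 0.0571) and *Lcn2* 1.34-fold higher (exact p = 0.229), neither past the threshold. *Glul* made up 56.1 ± 2.26% of the sum in WT and 49.3 ± 0.918% in SCA7. Against the other 11 genes the folds were smaller, 10.1 for *Serpina3n*, 9.17 for *Timp1*, 6.55 for *A2m*, 4.83 for *Gfap*, 3.37 for *S100a6*, 2.16 for *Cd44* and 1.47 for *Vim* (each exact p = 0.0286), with *Nes* at 1.61 (exact p = 0.0571) and *Lcn2* at 1.16 (exact p = 0.4). Of the 6 retinal astrocyte genes 5 were tested, and 2 were upregulated, *Pdgfra*, a growth factor receptor, by 0.62 (adjusted p = 3.54e-04 by edgeR) and *Aldh1l1*, a folate enzyme, by 0.65 (adjusted p = 8.56e-05 by edgeR). The largest difference in that list was in the other direction and not called, *Gja1*, the gap junction gene connexin 43, at -0.94 (from 11.3 ± 6.65 to 5.91 ± 2.08 CPM, with overlapping groups, adjusted p = 0.235 by edgeR). *Pax2*, the defining transcription factor of these astrocytes, had 0 to 5 counts in WT and 5 to 16 in SCA7 and was too low to be tested.

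Markers of other cells moved as well. All 13 microglia and macrophage genes were upregulated (median log2 fold change 1.15), and their sum went from 51.1 to 65.7 CPM in WT to 126 to 143 CPM in SCA7. Among them *C1qa*, *C1qb* and *C1qc*, the chains of the first complement component, rose by 1.44, 1.44 and 1.53. Relative to the microglia sum, a comparison added after these values were seen, *Serpina3n* was still 4.57-fold higher, *Timp1* 4.16-fold, *A2m* 2.97-fold and *Gfap* 2.19-fold (each exact p = 0.0286). *Cd44* stood at 0.980 of its WT ratio to the microglia sum (exact p = 0.914) and *S100a6* at 1.53 (exact p = 0.0857), both with overlapping groups. *Vim*, *Nes* and *Lcn2* were lower relative to it, at 0.669, 0.728 and 0.526 of their WT ratio (exact p = 0.0286, 0.0571 and 0.0286). The part of microglia in the levels of these genes was not tested.

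Of the 11 endothelium and pericyte genes, 3 were upregulated (*Vwf*, the von Willebrand factor, by 1.73, *Kdr*, the VEGF receptor, by 0.69 and *Cdh5*, the cadherin of vessel walls, by 0.63), and 0 were downregulated. Short of the FC threshold, 3 more were higher at an adjusted p under 0.05 by edgeR, the pericyte genes *Rgs5* and *Pdgfrb* at 0.28 and 0.34 and the angiopoietin receptor *Tek* at 0.25, and 1 was lower, *Cldn5*, a tight junction gene of endothelium, at -0.48 (15.1 ± 2.54 to 10.8 ± 0.337 CPM, adjusted p = 0.0109 by edgeR). The sum of the 11 genes went from 320 to 367 CPM in WT to 437 to 487 CPM in SCA7. Set against that sum, *Vim* was 1.13-fold higher in SCA7 with overlapping groups (exact p = 0.0571) and *Nes* 1.23-fold (exact p = 0.2). *Serpina3n* was 7.73-fold, *Timp1* 7.03-fold, *A2m* 5.03-fold, *Gfap* 3.70-fold, *S100a6* 2.59-fold and *Cd44* 1.66-fold higher relative to the vessel genes (each exact p = 0.0286). Neutrophil genes, which cells of the blood rich in lipocalin-2 express, were near 0: the 8 genes together reached 0.196 to 0.547 CPM in WT and 0.398 to 0.683 CPM in SCA7, *Camp* was at 0 in all libraries, and the 2 that could be tested, *S100a8* and *S100a9*, were not called by edgeR, DESeq2 or limma-voom, nor at an unadjusted p under 0.05. Of the 6 retinal pigment epithelium genes, 4 were downregulated, and their sum went from 102 to 209 CPM in WT to 18.2 to 43.6 CPM in SCA7. Fibroblast genes gave 0 calls among 5 by the same 3 tools, and 0 at an unadjusted p under 0.05. What lens, pigment epithelium and vessels add to the 9 genes was not tested, except that a fit with the lens sum as covariate gave the same 8 calls.

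**Figure D4:**
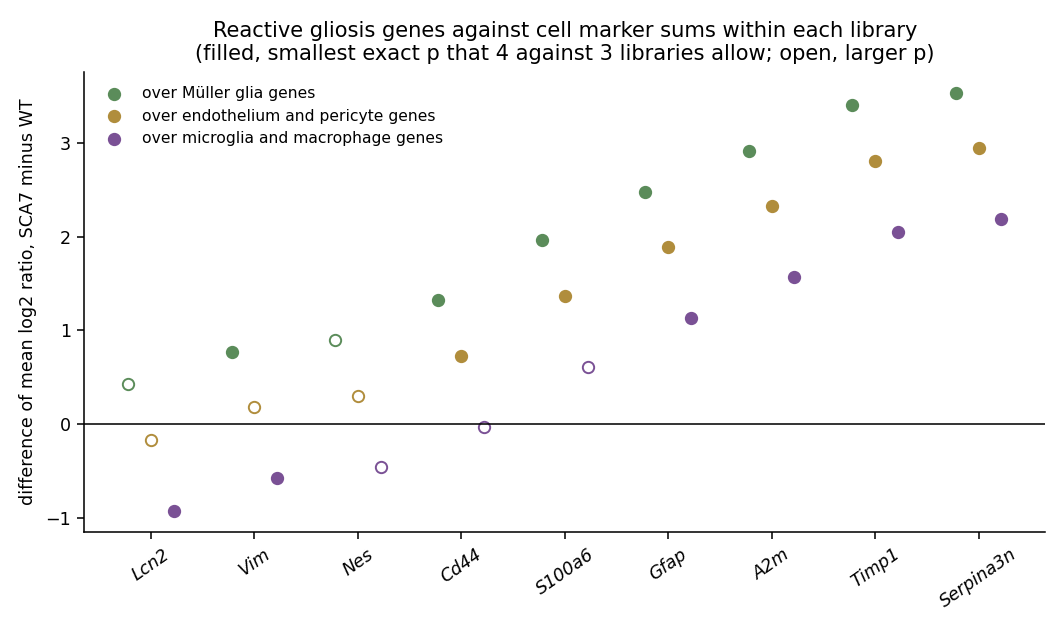
Difference between genotypes (SCA7 minus WT) in the mean log2 ratio of each gene to the summed CPM of 3 sets of marker genes in the same library, filled where the exact permutation p is 0.0286. *Serpina3n*, *Timp1*, *A2m* and *Gfap* lie above 1 against all 3 sums, while *Vim*, *Nes* and *Lcn2*, and narrowly *Cd44* (at -0.029), lie below 0 against the microglia and macrophage genes.

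Of the 29 other genes known from reactive astrocytes that were tested, 15 rose and 1 fell, and the median log2 fold change was 0.54. *Serping1*, the inhibitor of the first complement component, rose by 1.87 (6.44 to 23.5 CPM between the means, adjusted p = 1.12e-06 by edgeR). *Osmr*, the receptor of oncostatin M, rose by 1.64 (7.78 to 24.2 CPM, adjusted p = 1.07e-07 by edgeR) and *Gbp2*, an interferon-induced GTPase, by 1.44 (4.13 to 7.67 CPM over the WT libraries and 15.2 to 17.2 CPM over the SCA7 libraries, adjusted p = 5.85e-04 by edgeR). *Tm4sf1*, a membrane protein of vessels and other cells, was the 1 that fell, by 0.54.

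Of the genes that carry the acute phase signal, 7 of 12 tested were upregulated and 0 downregulated. *Stat3* rose by 1.71, from 50.6 ± 2.54 to 166 ± 20.5 CPM (adjusted p = 6.41e-08 by edgeR). Its feedback inhibitor *Socs3* rose by 2.53, from 3.26 ± 0.317 to 18.8 ± 3.93 CPM (adjusted p = 2.86e-07 by edgeR), and *Cebpd*, the acute phase transcription factor C/EBP delta, by 2.33, from 6.18 ± 1.09 to 31.0 ± 4.46 CPM (adjusted p = 1.13e-06 by edgeR). The cytokine *Lif* and the receptor chains *Lifr*, *Il6st* (gp130) and *Il6ra* were the other 4 upregulated, by 2.11, 0.80, 0.56 and 0.89. *Lif* was scarce, with 13 to 27 counts per WT library and means of 0.277 CPM in WT and 1.22 CPM in SCA7. *Il6ra* was also low, at means of 0.410 and 0.768 CPM. The kinase gene *Jak2* was higher at 0.21 (adjusted p = 0.0232 by edgeR), short of the FC threshold, and *Jak1* was at 0.02.

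Of 17 other intermediate filament genes, 1 was upregulated (*Prph*, the peripherin of peripheral neurons, by 0.50) and their median log2 fold change was -0.10. Of the 10 other genes of the serpin A3 cluster, 3 were at 0 in all libraries and only *Serpina3g* could be tested, with a log2 fold change of -0.03. Of 12 other S100 genes tested, 5 were upregulated, with *S100a11*, *S100a4* and *S100a16* at 0.82, 0.76 and 0.70, all below *S100a6*. *Cd109*, a membrane-bound relative of *A2m* and the 1 gene of its family that could be tested, rose by 1.91 from a low mean of 0.293 CPM to 1.10 CPM.

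Of the other metalloproteinase inhibitors, *Timp2* rose by 0.47 (adjusted p = 7.03e-05 by edgeR) and *Timp4* by 0.87, whereas *Timp3* was at -0.02 and not called. Of 9 matrix metalloproteinase genes tested, the targets of these inhibitors, 2 were upregulated (*Mmp14* by 0.40 and *Mmp19* by 1.20), and *Mmp12* fell by 0.92. Low levels limit *Mmp19* (means of 0.211 CPM in WT and 0.486 CPM in SCA7) and *Mmp12* (0.689 and 0.369 CPM). The same holds for *Timp4* (0.502 and 0.920 CPM). Of 7 genes of hyaluronan synthesis and turnover and of other CD44 ligands, 0 were called by edgeR, DESeq2 or limma-voom. Short of the FC threshold, *Hyal2*, a hyaluronidase, was higher at 0.29 (adjusted p = 0.0252 by edgeR), and at an unadjusted p under 0.05 there were 1 higher and 1 lower. Their median log2 fold change was 0.01, which was also that of *Spp1* (osteopontin), a ligand of CD44. Of the lipocalin-2 receptors, *Lrp2* (megalin) rose by 0.76 (adjusted p = 4.48e-05 by edgeR), and *Slc22a17* was not called.

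**Figure D5:**
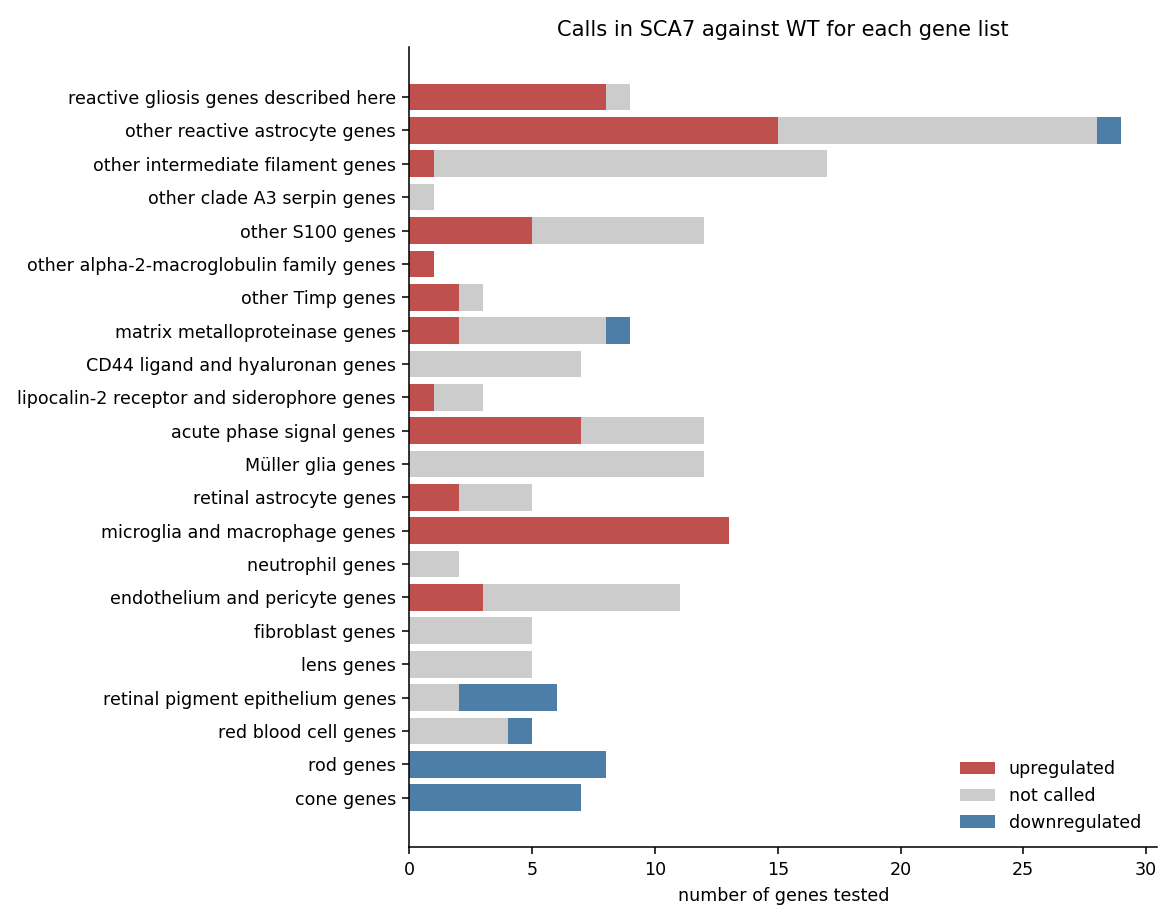
Number of genes tested (bar length) in the 9 reactive gliosis genes and in each of 21 other lists, with upregulated genes in red, downregulated genes in blue and the others in grey. The 13 microglia genes were all upregulated, the 12 Müller glia genes were not called, and the 8 rod and 7 cone genes were all downregulated.

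How closely the genes moved together was described by the correlation of each with the mean z-score of the 9 over the 7 libraries, which share the split by genotype. Each of the 9 is part of this mean, which raises its own correlation, so that these values are not comparable with those of genes outside it. *Gfap* was closest to this profile (Pearson r = 0.998), then *Serpina3n* (0.986), *A2m* (0.983), *Timp1* (0.980), *Vim* (0.974), *S100a6* (0.960), *Cd44* (0.943) and *Nes* (0.932), and *Lcn2* was farthest (0.589). Among 14712 other genes of at least 1 CPM, those most like it were *Aph1a*, a subunit of gamma-secretase (0.999), *C1qa* (0.998), *Pld4*, a phospholipase D family member (0.995), *C1qc* (0.994) and *Galk2*, a sugar kinase (0.994). Their log2 fold changes were 0.35, 1.44, 1.12, 1.53 and 0.36, so that genes with small changes also follow the profile.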

How the data were processed

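Retinal total RNA-seq of 4 WT and 3 SCA7 140Q/140Q mice was analysed. The authors depleted ribosomal RNA, prepared stranded libraries, mapped reads to mm10 with TopHat2 2.0.14 and Bowtie2 2.1.0 and counted them per gene with HTSeq 0.6.1, per the submitters' processing notes. The deposited values are raw counts, without normalization, and the mode and strand option of the counting are not given in the sources used here. Multimapping reads could therefore affect near-identical genes. Names and positions came from GENCODE M21 (GRCm38) and matched 52403 of the 52550 genes; 45 genes tested had no match.

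filterByExpr kept 20128 genes. After TMM scaling, genotypes were compared by the robust quasi-likelihood test in edgeR 4.0.16 (R 4.3.3), with no covariate, and p-values were adjusted over all 20128 genes by the Benjamini-Hochberg method. Upregulated meant an adjusted p under 0.05 and FC above 1.3, downregulated the same p and FC under 0.7. SE was the log2 fold change over the root of F. The common biological coefficient of variation was 0.106. Single values were compared by exact two-sided permutation over the 35 ways to choose 3 of 7 libraries, on log2 values (0.01 CPM added). The code was tested on simulated data. DESeq2 1.42.0 and limma 3.58.1 gave alternatives.

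The 9 genes and all gene lists were chosen with earlier results of these data known, so no list was tested. Named genes were the 9, up to 3 genes of each list with the largest absolute log2 fold change among its called genes of at least 1 CPM, the 5 genes most like the profile, and *Atxn7*. Others were named after their values were seen, to account for small counts or a partner of a named gene. Of the 197 distinct genes on the 21 other lists, 5 are on 2 lists.

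Same-numbered WT and SCA7 libraries deviated together from their genotype means, with correlations over genes of 0.109, 0.382 and 0.167. Of the 9 differently numbered pairs, WT 4 with SCA7 3 (0.188) and WT 4 with SCA7 1 (0.145) also exceeded 0.1. The pairing rests on the replicate numbers, these values and a further number in the sample titles. That number is nearest within each same-numbered pair and far from the others for WT replicate 4, but no label says what it marks. *Xist* was under 1 CPM in all 7 libraries. Precision is the SD over mice or the SE of the fit.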

Additional observations from a re-analysis of the deposited data

Results flagged for a closer look

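Among 30 groups of 4 WT values tested for a library far from the others (9 genes and 21 list sums), 3 had one, where chance gives about 1 in 20. None of the 9 reactive gliosis genes was among them. The summed level of the other alpha-2-macroglobulin family genes was 0.107 CPM in WT replicate 4 and 0.359 to 0.391 CPM in the other WT libraries. This sum rests on few counts, and WT replicate 4 was also the lowest WT library of *A2m*, at 11.7 CPM. The retinal pigment epithelium genes summed to 102 CPM in WT replicate 3 and to 199 to 209 CPM in the other WT libraries, all above the SCA7 libraries. The red blood cell genes summed to 76.7 CPM in WT replicate 3 and to 54.5 to 55.6 CPM in the others. Without WT replicate 3 or 4, the same 8 of the 9 genes were upregulated.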

How the results depend on the processing

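Of 341 values under alternative settings, 317 were taken as unchanged. Single values had to keep their direction and their side of the threshold or, where untested, stay within 1 SD. Counts of calls had only to stay within a set ratio of the main count, as with 7 in place of 8 genes upregulated. The calls of the 9 genes were alike with DESeq2 size factors, the DESeq2 Wald test, limma-voom and no filter on low counts. They were also alike with lens genes as covariate (added after the data were seen) and an adjusted p under 0.01. Calls were alike too with *Xist* as covariate and with no FC threshold, but these 2 settings are weak checks. *Xist* was under 1 CPM in all 7 libraries. Dropping the FC threshold could not remove a call, nor add *Lcn2* at its adjusted p of 0.27 by edgeR. With at least 10 counts in every library *Timp1* was not tested, which left 7 upregulated. With the replicate number as a block 8 were upregulated (*Gfap* 2.18, *S100a6* 1.59, *Lcn2* 0.18), and the pairing changed no call of the 9.

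Relative to the endothelium and pericyte sum in place of the Müller glia sum, *Vim* was at 0.18 and *Lcn2* at -0.17 (log2). Relative to the microglia sum, *Vim* was at -0.58, *Nes* at -0.46, *Lcn2* at -0.93, *Cd44* at -0.029 and *S100a6* at 0.61; each sum itself moved differently between genotypes. With the union of exons as length, 4 genes in WT and 5 in SCA7 changed place in the order of levels per kb, and 15 of 18 shares of the summed RPK moved by over 1 SD. Without *Glul* the log2 ratios to the Müller glia sum were lower (*Vim* 0.56, *Lcn2* 0.21), on the same side of the threshold. The counts over the other lists, 51 upregulated and 22 downregulated, ran from 45 to 63 and from 19 to 26. Low counts limit *Timp1* in WT.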

Other observations

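A few genes related to the 9 were too low to be tested but are given by their counts, chosen after their values were seen. *Serpina3i*, a neighbour of *Serpina3n* in the serpin A3 cluster, reached 0 to 3 counts per WT library and 5 to 21 per SCA7 library. Reads that fit both genes cannot be told apart in these counts. *Aspg*, an asparaginase known from reactive astrocytes, had 1 to 3 counts in WT and 13 to 22 in SCA7. In the list of reactive astrocyte genes *Cxcl10*, a chemokine induced by interferon, rose by 2.91 (edgeR quasi-likelihood adjusted p = 1.08e-04) from a mean of 0.135 to 1.03 CPM, while *Emp1*, *Ptx3*, *Ptgs2* and *Cd14* were between -0.12 and 0.09 on the log2 scale and not called.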
